A study of Mus musculus with 12 samples.

Results

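Genes that set the pace of the G1 phase were examined in mouse B-ALL cells: the D cyclins Ccnd1, Ccnd2 and Ccnd3, the kinases Cdk4 and Cdk6 that they activate, and 5 inhibitors of cyclin-dependent kinases, Cdkn1a, Cdkn1b, Cdkn2a, Cdkn2b and Cdkn2c. These 10 genes were taken by name, through their Ensembl identifiers, from a table of 41444 genes, and all 10 were found. RNA-seq was performed on pre-B cells from the bone marrow of Ctnnb1 fl/fl mice, which carry floxed alleles of the β-catenin gene, grown ex vivo with IL7 and then transformed by retroviral BCR-ABL1. In both groups compared, the cells carried an ERT2 vector without Cre and received 4-OHT for 2 days, so that the floxed alleles were not targeted. The 3 LY2090314 libraries also received this GSK3 inhibitor, for 1 day by the sample labels and for a shorter time by the legend of the study, and the 3 control libraries did not. The study describes the replicates as separate mice, but the columns of 2 of the LY2090314 libraries share the number 14 and are called LY 14A and LY 14B here, beside LY 15.

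D cyclins bind Cdk4 and Cdk6, and the active kinases phosphorylate the retinoblastoma protein and its relatives, which releases E2F factors to transcribe S-phase genes. INK4 proteins, encoded by Cdkn2a, Cdkn2b and Cdkn2c, bind the kinases and keep D cyclins away, whereas the CIP/KIP proteins p21 (Cdkn1a) and p27 (Cdkn1b) bind complexes of cyclins with kinases and above all block Cdk2. Cyclin D3 is required for the expansion of normal pre-B cells, and Cdk6 is the kinase known to serve BCR-ABL1-transformed lymphoid cells. GSK3 phosphorylates D cyclins and thereby marks them for degradation, a step at the level of protein that RNA does not show.

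With LY2090314, the D cyclins moved apart: Ccnd2 rose 1.90-fold and Ccnd3 fell to a level 2.12-fold lower. Cdk6 rose 1.57-fold while Cdk4 did not pass the test. All 5 inhibitors rose, from 0.21 on the log2 scale for Cdkn2c to 1.14 for Cdkn2a. In all, 8 of the 10 genes were called at an adjusted p under 0.05 (limma, Benjamini-Hochberg over the 11536 genes tested), 7 higher and 1 lower. The background was high, since 50.1% of all tested genes were called, 24.8% higher and 25.3% lower with LY2090314. The median difference of the 10 genes was 0.45, against 0.012 over all genes tested, and their median absolute difference was 0.64, against 0.24. The groups did not overlap for 9 of the 10 genes, as they did not for 58.6% of all genes.

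The values are rlog values, read counts scaled for library size and placed on a log2 scale with those of weakly expressed genes drawn towards the mean of each gene. A difference of 1 is therefore a doubling, or somewhat more for a gene with few reads. The depth of each library is unknown, as no counts are used here. All 10 genes passed the limit of a mean of 3 across the 6 libraries. In these bulk samples, fewer cells that express a gene and less of its RNA per cell cannot be told apart. LY 14A and LY 14B differed from each other by an SD of 0.186 over the tested genes, and from LY 15 by 0.253 each, beside 0.185 to 0.239 for pairs of controls, while every pair across the groups differed by at least 0.581.

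**Figure D1:**
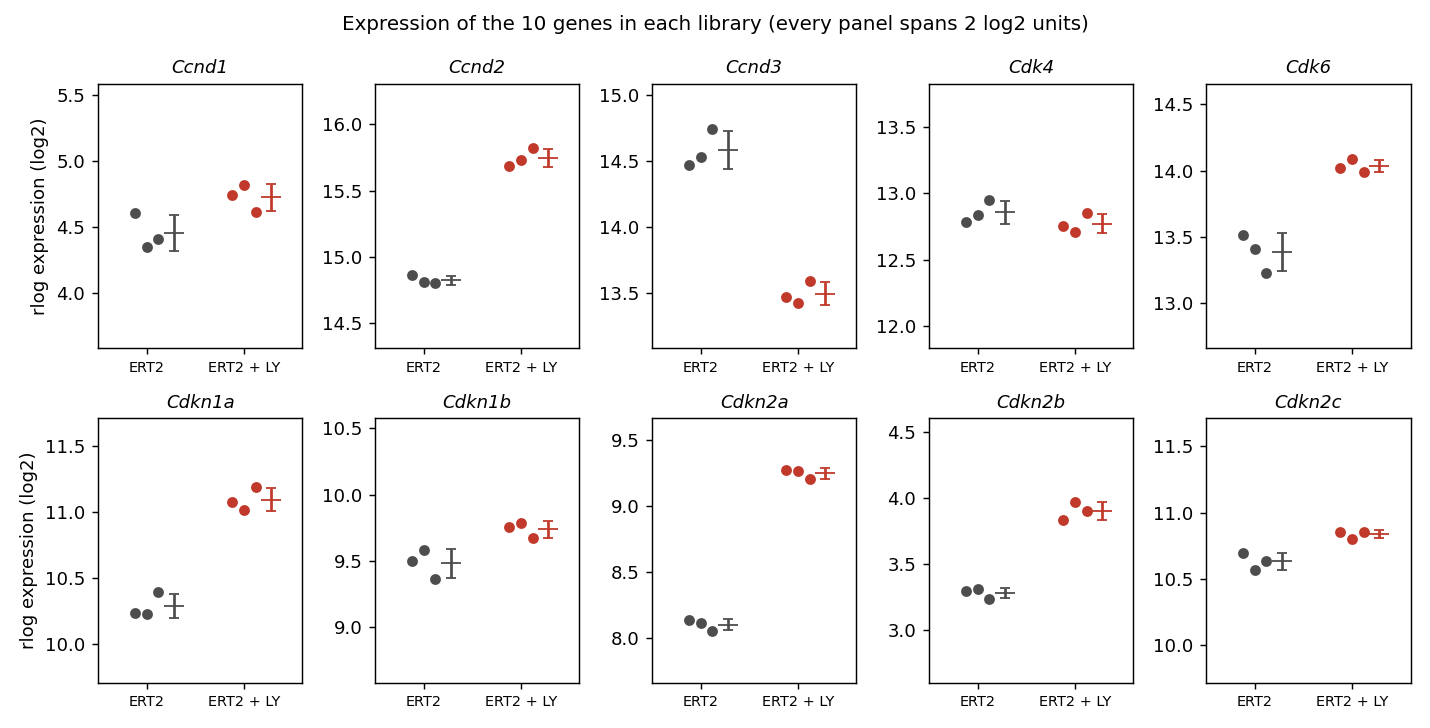
rlog expression (log2, y axis) of each of the 10 genes in the 3 ERT2 control libraries (grey) and the 3 ERT2 libraries with LY2090314 (red). Points are libraries, the bar beside them is the mean ± SD (n = 3), and every panel spans the same number of log2 units, so that distances compare across genes: Cdkn2a, Ccnd3 and Ccnd2 separate most, and only for Cdk4 do the groups overlap.

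Sequence 5′ of the start sites was read from RefSeq (GRCm38.p6), with the E-box CACGTG in capitals, since this palindromic site is bound by Myc with Max and Myc itself fell by 2.64 on the log2 scale. Of the 10 genes, 8 had entries on their annotated chromosome, with 12 start sites in all, and windows of 250 bases upstream of each were searched. Ccnd1 and Ccnd2 had no such entry, so their upstream sequence was not searched for any motif. Any entry elsewhere was left out of this search but not of the promoter windows counted below. The E-box was found in 2 of the 12 windows, 4 times before Cdk4 (chr10:127063285-127063534, plus strand) and 1 time before Cdk6 (chr5:3343643-3343892, plus strand, inside the span that GENCODE gives the gene). At least 1 E-box lies in 6.02% of the 32851 promoter windows of the same length, and 4 or more in 0.0213% of them. The Cdk4 and Cdk6 windows are shown as the only ones of the 12 searched that hold this site. The part of Myc in the values of the 10 genes was not tested.
Cdk4: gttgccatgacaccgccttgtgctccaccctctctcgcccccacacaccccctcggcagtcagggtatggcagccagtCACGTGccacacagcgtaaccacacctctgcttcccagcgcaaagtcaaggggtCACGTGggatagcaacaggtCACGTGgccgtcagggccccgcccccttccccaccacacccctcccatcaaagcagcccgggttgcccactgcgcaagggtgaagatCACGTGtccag
Cdk6: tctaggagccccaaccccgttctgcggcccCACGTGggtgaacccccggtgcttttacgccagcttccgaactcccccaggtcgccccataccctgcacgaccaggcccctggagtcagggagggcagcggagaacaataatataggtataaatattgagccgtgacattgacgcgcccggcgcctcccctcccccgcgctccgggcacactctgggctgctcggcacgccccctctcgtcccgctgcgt

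Cdkn2a, the gene with the largest rise of the set, makes INK4a and ARF RNAs from different first exons that share the later ones. Both upstream windows are shown because the single value of the gene sums the RNAs of both starts. The ARF start lies upstream (window chr4:89294620-89294869, minus strand) of the INK4a start (window chr4:89282193-89282442, minus strand), and the former has a G and C content of 78.4% against 60.0% for the latter. Neither holds CACGTG.
Cdkn2a, ARF start: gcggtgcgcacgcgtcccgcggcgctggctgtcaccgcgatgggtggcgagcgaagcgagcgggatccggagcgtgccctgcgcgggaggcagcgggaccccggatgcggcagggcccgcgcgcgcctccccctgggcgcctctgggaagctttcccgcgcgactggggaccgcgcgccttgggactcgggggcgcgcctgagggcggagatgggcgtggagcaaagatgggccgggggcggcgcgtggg
Cdkn2a, INK4a start: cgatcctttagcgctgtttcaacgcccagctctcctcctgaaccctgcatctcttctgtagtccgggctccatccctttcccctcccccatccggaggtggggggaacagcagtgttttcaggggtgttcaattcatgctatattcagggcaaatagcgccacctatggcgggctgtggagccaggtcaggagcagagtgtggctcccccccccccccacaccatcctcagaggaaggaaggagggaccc

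The cores CTTTGA and CTTTGT, which the TCF and LEF partners of β-catenin recognize, were searched on both strands. CTTTGA was found in 1 of the 12 windows, that of Cdk4, and CTTTGT in 1, the upstream window of Ccnd3. The 12 windows include none of Ccnd1 or Ccnd2, so nothing is known here of these cores before them. These cores are found in 13.8% and 16.5% of all windows. Motif matches describe these letters only, and binding was not measured.

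To ask how the D cyclins responded, each was followed through the 6 libraries. Ccnd2 (ENSMUSG00000000184, chr6:127125162-127152193, minus strand) encodes cyclin D2 and had rlog values of 14.86, 14.81 and 14.80 in the controls and of 15.68, 15.73 and 15.82 with LY2090314. The groups were far apart compared with their spread, and Ccnd2 rose by 0.92 ± 0.073 (SE, adjusted p = 3.04e-05). Ccnd3 (ENSMUSG00000034165, chr17:47505051-47599691, plus strand), which encodes cyclin D3, stood at 14.47, 14.53 and 14.74 in the controls and at 13.47, 13.42 and 13.59 with the inhibitor. Every LY2090314 library lay below every control, and Ccnd3 fell by 1.09 ± 0.086 (SE, adjusted p = 3.19e-05).

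Ccnd1 (ENSMUSG00000070348, chr7:144929931-144939925, minus strand) encodes cyclin D1, the D cyclin best known from epithelial cells and as a target of Wnt signaling, and had the lowest level per length of the 10 genes. Its rlog values were 4.61, 4.35 and 4.41 in the controls and 4.75, 4.82 and 4.62 with LY2090314. The lowest treated library lay just above the highest control, with a difference of 0.27 (95% interval 0.03 to 0.51, adjusted p = 0.0577), which missed the threshold. Ccnd1 was called without control 1 (0.35, adjusted p = 0.0332) and without LY 15 (0.33, adjusted p = 0.0380). Its exons share 1100 bases with LTO1 on the other strand, whose rlog values ran from 7.16 to 7.74 in the controls and from 7.21 to 7.74 with the inhibitor. The library kit marks strand, but whether the quantification used it is not stated in the sources used here.

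Ratios between pairs of the genes were taken within each library, where a shift of all its log2 values by the same amount cancels out. The shrinkage of rlog values differs by gene and does not cancel, which matters for ratios with the weakly expressed Ccnd1. The log2 ratio of Ccnd2 to Ccnd3 was 0.39, 0.28 and 0.06 in the controls and 2.21, 2.31 and 2.23 with LY2090314. It rose by 2.01, from 0.24 ± 0.17 to 2.25 ± 0.051 (SD, n = 3; exact permutation p = 0.10, two-sided, the smallest that 3 against 3 libraries allow, and 0.10 after adjustment over the 6 ratios compared). This ratio restates the differences of Ccnd2 and Ccnd3 without any such shift and is not evidence beyond them. The ratio of Ccnd1 to Ccnd3 rose by 1.36, and that of Ccnd1 to Ccnd2 fell by 0.65, also without overlap and with the same p (exact permutation, 0.10).

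Levels were compared between genes only after dividing by length, here the longest protein-coding transcript of GENCODE vM21. On this scale Ccnd2 made up 28.3% ± 2.40 of the D-cyclin signal in the controls and 61.4% ± 0.836 with LY2090314 (SD, n = 3), and Ccnd3 went from 71.6% ± 2.40 to 38.6% ± 0.839. Ccnd1 held 0.0365% in the controls and 0.0502% with the inhibitor. The shares depend on the length used: with all annotated exons merged, which makes Ccnd3 8.78 kb long instead of 2.11 kb, Ccnd2 held 52.4% in the controls and 81.6% with LY2090314. The summed D-cyclin level differed by -0.19 on the log2 scale with the first length and by 0.29 with the second, so that no direction of the sum can be given.

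Ccnd3 shares 361 exon bases with Bysl on the other strand, a gene of ribosome assembly whose rlog values were 9.84 to 10.00 in the controls and 9.47 to 9.53 with LY2090314. The part of Bysl reads in the Ccnd3 values was not tested. Ccnd2 shares 368 exon bases with 9330179D12Rik, at 2.49 to 2.69 in the controls and 2.55 to 2.72 with the inhibitor.

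The kinases were compared next. Cdk6 (ENSMUSG00000040274, chr5:3341485-3531008, plus strand) had rlog values of 13.52, 13.41 and 13.23 in the controls and of 14.02, 14.09 and 13.99 with LY2090314. All treated libraries exceeded all controls, and Cdk6 rose by 0.65 ± 0.080 (SE, adjusted p = 0.000328). Cdk4 (ENSMUSG00000006728, chr10:127063534-127067920, plus strand) had 12.78, 12.84 and 12.95 in the controls and 12.75, 12.71 and 12.85 with the inhibitor. These groups overlapped, and the difference of -0.09 had a 95% interval of -0.23 to 0.06 (adjusted p = 0.288), which leaves room for a small change in either direction and not for one of the size seen in Cdk6. Cdk4 shares 641 exon bases with Tspan31 on the other strand, at 9.86 to 10.08 in the controls and 9.93 to 10.18 with LY2090314.

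The log2 ratio of Cdk6 to Cdk4 within a library was 0.73, 0.57 and 0.28 in the controls and 1.27, 1.38 and 1.14 with LY2090314. It rose by 0.74 without overlap (exact permutation p = 0.10). Per length, Cdk4 stayed the more abundant of the 2 kinases, and Cdk6 held 20.5% ± 2.57 of their sum in the controls and 30.0% ± 1.73 with the inhibitor (SD, n = 3). With merged exons these shares were 25.1% and 35.8%.

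**Figure D2:**
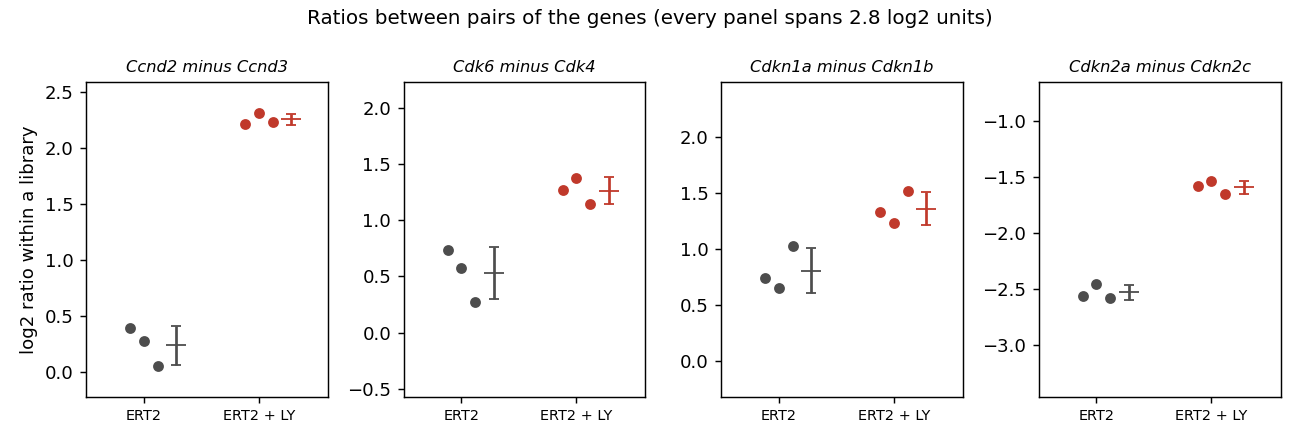
Log2 ratios (y axis) of Ccnd2 to Ccnd3, Cdk6 to Cdk4, Cdkn1a to Cdkn1b and Cdkn2a to Cdkn2c within each library, for ERT2 controls (grey) and ERT2 with LY2090314 (red). Points are libraries and bars the mean ± SD (n = 3); every panel spans the same number of log2 units, no pair of groups overlaps, and the shift of Ccnd2 to Ccnd3 by 2.01 is the largest of the 4 shown.

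Among the INK4 inhibitors, Cdkn2a (ENSMUSG00000044303, chr4:89274471-89294653, minus strand) had rlog values of 8.14, 8.12 and 8.05 in the controls and of 9.27, 9.27 and 9.20 with LY2090314. The spread within each group was small beside the gap, and Cdkn2a rose by 1.14 ± 0.062 (SE, 2.21-fold, adjusted p = 4.11e-06). By the absolute difference it ranked 537 of 11536 genes. INK4a inhibits Cdk4 and Cdk6, whereas ARF binds Mdm2 and stabilizes p53, and the share of each RNA in the rise cannot be told apart from a value per gene.

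Cdkn2b (ENSMUSG00000073802, chr4:89306299-89311039, minus strand), the neighbor of Cdkn2a that encodes p15, stood close to the limit for testing. Its rlog values were 3.30, 3.31 and 3.24 in the controls and 3.84, 3.97 and 3.91 with LY2090314, without overlap, and it rose by 0.62 ± 0.075 (SE, adjusted p = 0.000306). Cdkn2c (ENSMUSG00000028551, chr4:109660876-109667189, minus strand) encodes p18 and had rlog values of 10.70, 10.57 and 10.63 in the controls and of 10.86, 10.80 and 10.86 with the inhibitor. It rose by 0.21 ± 0.050 (SE, adjusted p = 0.0104), a call that was lost without control 2 (0.17, adjusted p = 0.0505). The log2 ratio of Cdkn2a to Cdkn2c went from -2.53 ± 0.069 to -1.59 ± 0.059 (SD, n = 3; exact permutation p = 0.10).

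Of the CIP/KIP inhibitors, Cdkn1a (ENSMUSG00000023067, chr17:29090976-29100727, plus strand) encodes p21, a target of p53 and a gene that Myc represses. Its rlog values were 10.24, 10.23 and 10.39 in the controls and 11.08, 11.02 and 11.19 with LY2090314. The treated libraries lay well above the controls, and Cdkn1a rose by 0.81 ± 0.066 (SE, 1.75-fold, adjusted p = 3.97e-05). Cdkn1b (ENSMUSG00000003031, chr6:134920401-134925513, plus strand), encoding p27, had 9.50, 9.58 and 9.36 in the controls and 9.75, 9.79 and 9.67 with the inhibitor. It rose by 0.25 ± 0.070 (SE, adjusted p = 0.0181). This smaller rise was not called without LY 14A (0.25, adjusted p = 0.0560), without LY 14B (0.23, adjusted p = 0.0641) or with these libraries averaged as 1 sample (0.24, adjusted p = 0.0571). The log2 ratio of Cdkn1a to Cdkn1b rose by 0.55 within libraries, without overlap (exact permutation p = 0.10).

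**Figure D3:**
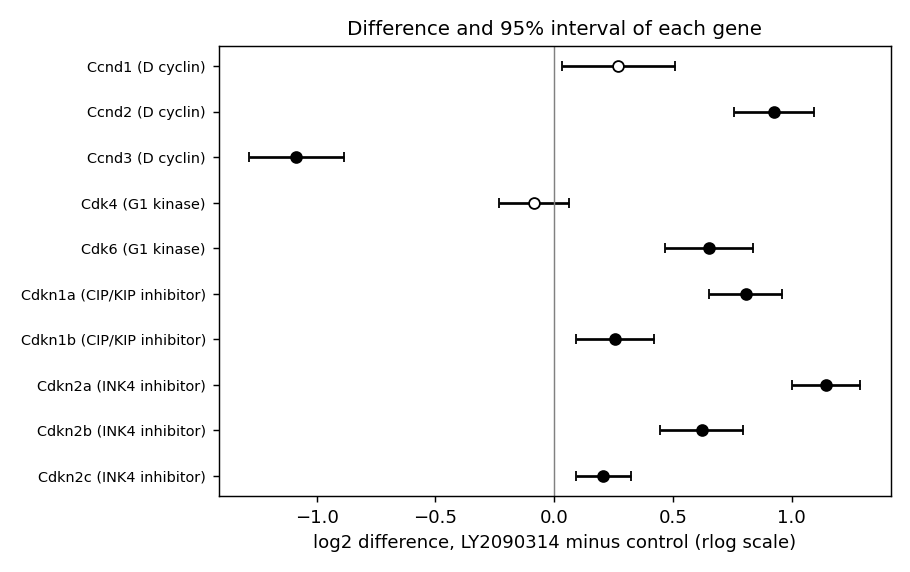
Log2 difference between ERT2 cells with LY2090314 and ERT2 control cells on the rlog scale (x axis) for each gene with its role (y axis). Bars are 95% intervals from limma over 3 against 3 libraries and filled points are genes called at an adjusted p under 0.05: Ccnd3 is the only one below 0 among the called genes, and Ccnd1 and Cdk4 are open.

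Divided by the length of the longest coding transcript, the log2 levels in the controls ran from Ccnd3 (13.50 ± 0.14), Ccnd2 (12.16 ± 0.034) and Cdk4 (11.82 ± 0.086) through Cdk6, Cdkn2c, Cdkn1a, Cdkn2a and Cdkn1b down to Cdkn2b (2.81 ± 0.040) and Ccnd1 (2.55 ± 0.14; SD, n = 3). Of the neighbors in this order, only Cdkn2c and Cdkn1a had ranges that overlapped. With LY2090314 the order changed in 2 places, with Ccnd2 (13.08 ± 0.068) ahead of Ccnd3 (12.41 ± 0.085) and Cdkn1a (10.04 ± 0.086) ahead of Cdkn2c (9.53 ± 0.031; SD, n = 3), and no neighbors overlapped. With merged exons, Ccnd2 and Ccnd3 had overlapping ranges at the top in the controls, and with LY2090314 Cdk4 stood between them. On this length Ccnd2 already had the higher mean in the controls (11.59 against 11.45 for Ccnd3). Cdkn2c stayed ahead of Cdkn1a with LY2090314 (9.41 against 9.27). Both changes of order thus depend on the length used.

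Genes that act with or next to the 10 were read from lists. In the cyclin E and cyclin A module of Cdk2, which acts after the D cyclins, 1 of 7 tested genes rose, 2 fell and 4 were not called, near the background of 50.1% called among all genes, with a median difference of 0.02. Ccne2, encoding cyclin E2, fell by 0.76, and Ccna2, encoding the S-phase cyclin A2, fell by 0.66, while Cks1b, a small subunit that helps deliver p27 to its ligase, rose by 0.20. Cdk2 itself differed by 0.06 (adjusted p = 0.577) and Ccne1 by -0.22 (adjusted p = 0.0510). Of the 3 genes of the CDK-activating kinase, 1 was called: Ccnh differed by -0.16, and this call was lost without control 1, control 3, LY 14A or LY 14B. Among other inhibitors, Cdkn3, a phosphatase that acts on Cdk2, fell by 0.56, and Cdkn2d, the remaining INK4 gene, differed by 0.13 at a low level (adjusted p = 0.641).

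For the turnover of D cyclins and p27, 3 of 11 tested genes rose, 2 fell and 6 were not called, also near the 50.1% of all genes, with a median of 0.09. Fbxo31 (0.42) and Fbxo4 (0.30), adaptors of ubiquitin ligases described for cyclin D1, and Fbxw7 (0.37), the adaptor for cyclin E and Myc, rose. The call of Fbxo4 was the weakest of the list (limma, adjusted p = 0.0354), and 4 to 6 genes of the list were called with single libraries left out. Cul1, the scaffold of these ligases, fell by 0.44. Skp2, the adaptor for p27, was chosen after its values were seen and fell by 0.28. Gsk3b, which encodes a target of the compound, differed by 0.13 (adjusted p = 0.0507).

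Downstream, the pocket proteins and E2F factors leaned lower, with 8 of 13 lower, 1 higher and 4 not called and a median of -0.28. E2f2 fell by 0.93, Tfdp2, a dimer partner of E2F factors, fell by 0.91, E2f6 fell by 0.77 and E2f3 fell by 0.49, while E2f1 differed by -0.15 (adjusted p = 0.108). Rb1 and E2f8 were chosen after their values were seen: Rb1, the retinoblastoma gene, fell by 0.41, and E2f8, a repressive E2F, rose by 0.37. Of 20 S-phase genes that E2F factors activate, 19 fell and none rose, with a median of -0.49, against the 25.3% of all genes called lower. The replication genes Pola1, Mcm7 and Mcm5 had differences of -0.69, -0.67 and -0.63, and Ccne2 is on this list too. Fewer cells in S phase and less of these RNAs per cell cannot be told apart.

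Regulators of the 10 genes moved in both directions, with 10 of 23 tested higher, 9 lower and 4 not called, against 24.8% higher and 25.3% lower among all genes, and a median of 0.07. Myc, which activates Ccnd2 and Cdk4 and represses Cdkn1a, Cdkn1b and Cdkn2b in many cells, had rlog values of 11.84, 11.77 and 11.76 in the controls and of 9.15, 9.17 and 9.13 with LY2090314. It fell by 2.64 ± 0.046 (SE, adjusted p = 1.92e-08). Tcf7, a partner and target of β-catenin, rose by 2.62. Pax5 fell by 1.54, and Id2, an inhibitor of E proteins, rose by 1.51. Id3, another inhibitor of E proteins, was chosen after its values were seen and moved the other way, with a difference of -1.499. What these regulators contribute to the values of the 10 genes was not tested.

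Zbtb17 (Miz-1), through which Myc represses inhibitor genes, differed by 0.13 (adjusted p = 0.171), and Bmi1, a Polycomb repressor of Cdkn2a, by 0.07 (adjusted p = 0.433). The next genes were chosen after their values were seen. Ezh2, the Polycomb methyltransferase known to silence Cdkn2a, rose by 0.84 ± 0.063 (SE, adjusted p = 2.37e-05), from 13.55 to 13.66 in the controls to 14.39 to 14.52 with LY2090314. Trp53 fell by 0.19, and Mdm2, a p53 target, rose by 0.52. The part of these genes in the values of Cdkn2a and Cdkn1a was not tested.

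**Figure D4:**
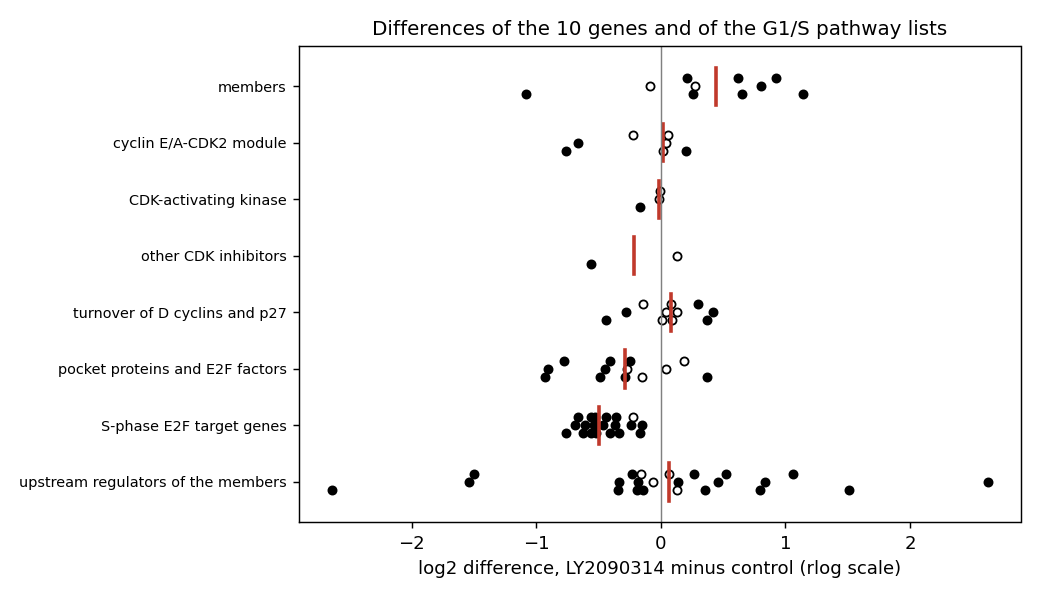
Log2 difference between LY2090314 and control libraries on the rlog scale (x axis) for the 10 genes (members) and the tested genes of 7 lists (y axis). Each point is a gene, filled if called at an adjusted p under 0.05, and red bars are medians: 0.45 for the 10 genes and -0.49 for the S-phase genes, all of which lie below 0.

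Markers of the labelled cell type were present and moved with the treatment. Of 10 pre-B markers 8 fell, 1 rose and 1 was not called, against 25.3% lower and 24.8% higher among all genes. Their median difference was -1.10, and their summed log2 level was 16.26 to 16.29 in the controls and 15.71 to 15.85 with LY2090314. The recombinase genes Rag1 and Rag2 had differences of -1.93 and -1.81, and Igll1, of the surrogate light chain, had one of -1.42, beside that of Pax5 above. Of 6 T cell markers only Cd2 was tested, and it rose by 0.54, while Cd3e, Cd3d, Cd3g, Cd4 and Cd8a were below 0 in every library. The summed level was 7.47 to 8.02 in the controls and 8.06 to 8.44 with the inhibitor, nearly that of Cd2 alone. Whether Cd2 marks T cells in this culture was not tested. Of 6 myeloid markers only Lyz2 was tested and rose by 0.53 (sum 5.787 to 5.997 and 6.360 to 6.479), and of 6 erythroid markers only Hbb-bt was tested and fell by 0.44 (sum 4.28 to 4.33 and 3.96 to 4.00). The myeloid granule genes Mpo and Elane and the globin genes Hba-a1 and Hba-a2 were listed at 0 in every library and left out of the sums. None of 6 stromal markers passed the limit, since Col1a2, Col3a1, Pdgfra and Cxcl12 were listed at 0 and Col1a1 and Pdgfrb were below 0 in every library, with a sum of -0.47 to -0.43 in the controls and of -0.47 to -0.45 with the inhibitor. The part of these shifts in the values of the 10 genes was not tested.

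Genes whose centred values over the 6 libraries lay nearest to a gene of the set were also found. Nearest to Cdkn2a were Gm20754, Ddit4, an inhibitor of mTORC1, and Psme4, a proteasome activator, with root mean square distances of 0.030, 0.032 and 0.034. Nearest to Ccnd3 were Exosc5, a subunit of the RNA exosome, Srm, spermidine synthase, and Tuba4a, an alpha-tubulin, at 0.045, 0.046 and 0.050. These genes were picked for their likeness, which rests on 1 contrast between 2 groups.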

How the data were processed

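RNA-seq of polyadenylated RNA was made with a stranded kit and paired-end reads. The authors checked reads with FastQC 0.11.9, SAMtools 1.7 and Picard 2.23.8, and their tools were Salmon for transcript quantities, STAR for alignment (GRCm38, GENCODE vM24) and DESeq2 1.30.1. They deposited one table of log2 (rlog) values per gene for 12 columns; its options and the strand setting are not given in the sources used here. Columns were assigned by name: 3 to ERT2 and 3 to ERT2 with LY2090314. The other 6, whose names combine Cre and LY, were not used. The planned fit over all groups was made over these 6 libraries. No counts are used, so the depth and counting error of each library are unknown.

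Genes with a mean of at least 3 over the 6 libraries were kept (11536), and the contrast was fitted by limma 3.58.1 (R 4.3.3, trended eBayes, Benjamini-Hochberg, threshold 0.05). Ratios within libraries were compared by exact two-sided permutation tests. If libraries share a culture, p-values measure technical spread only. Symbols came from the reference annotation (41157 of 41444 identifiers), and gene positions and lengths from GENCODE vM21 (GRCm38). Both gene lengths were chosen after seeing the data.

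Named were the 10 genes, in each list up to 4 called genes with the largest differences and no overlap and up to 2 that were not called, and the 3 genes nearest to the largest rise and fall. The members and lists were chosen with earlier results of these data known. Alternatives were no trend, no limit or a limit of 5, median centring, quantile normalization, an adjusted p under 0.01, a log2 difference of at least 1, each library left out, and LY 14A and LY 14B as 1 sample.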

Additional observations from a re-analysis of the deposited data

How the results depend on the processing

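Ccnd2, Ccnd3, Cdk6, Cdkn1a, Cdkn2a and Cdkn2b stayed called, and Cdk4 not called, under every alternative that gave them a value other than a log2 difference of at least 1, and no gene of the 10 changed direction. Ccnd1 and Cdkn2b fell below a limit of 5 and had no value there. Ccnd1 was called without the mean-variance trend (0.27, adjusted p = 0.0409), and its difference was 0.22 to 0.35 with single libraries left out, called without control 1 and without LY 15, and was 0.13 (adjusted p = 0.320) after quantile normalization. With single libraries left out, Cdkn1b ran from 0.20 to 0.31 and Cdkn2c from 0.17 to 0.24. In these fits 7 to 9 of the 10 genes were called, beside 4741 to 6225 of all genes. An adjusted p under 0.01 left 6 of the 10 genes, without Cdkn1b and Cdkn2c, and 4021 of all genes. With LY 14A and LY 14B as 1 sample, Cdkn1b differed by 0.24 (adjusted p = 0.0571). A log2 difference of at least 1 left 2 of the 10 genes, 1 of them higher (Cdkn2a and Ccnd3), and 693 of all genes, 478 higher and 215 lower. With single libraries left out, 0 to 1 genes of the CDK-activating kinase and 0 to 1 T cell markers were called; Cd2 was not called without control 1, control 2, LY 14B or LY 15. Merging all exons as the gene length, an alternative chosen after seeing the data, turned the summed D-cyclin difference from -0.19 to 0.29, because it lengthens Ccnd3 most.

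The median of all genes differed by 0.012, by -0.015 after centring and by -0.037 after quantile normalization, and the share of higher genes among those called was 49.5%, 45.7% and 43.4%. No paired analysis was possible because the columns carry no replicate number that matches those of the titles. The shrinkage of rlog values makes differences of Ccnd1 and Cdkn2b smaller, and RNA levels say nothing of cyclin protein.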
